A study of Mus musculus with 6 samples.

Results

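The genes described here are 41 markers of DNA replication and cell division, matched by symbol among the 32285 genes of the deposited matrices. They were scored as 16 replication members and 25 mitosis members. The replication members are Mcm2, Mcm3, Mcm4, Mcm5, Mcm6, Mcm7, Gins2, Cdc6, Cdt1, Pcna, Pclaf, Uhrf1, Tyms, Rrm1, Rrm2 and Tk1. The mitosis members are Ccna2, Ccnb1, Ccnb2, Cdk1, Plk1, Aurka, Aurkb, Bub1, Bub1b, Cdc20, Ube2c, Birc5, Cenpa, Cenpe, Cenpf, Kif11, Kif20a, Kif23, Tpx2, Nusap1, Tacc3, Stmn1, Mki67, Top2a and Hmgb2. All 41 symbols were found, and no member was used to gate or cluster cells.

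Live CD45+ leukocytes had been sorted from subcutaneous tumours of MC38, a mouse colon adenocarcinoma line given as wild-type cells, on day 25 after inoculation, and profiled by droplet 5′ single-cell RNA sequencing with T cell receptor (TCR) sequencing. The 3 control samples (ctr) carry the genotype Ctcf WT in Tregs, and the 3 cko samples carry Ctcf knockout in Tregs, which tamoxifen induces. The driver of the recombinase, the tamoxifen schedule, the strain, age and sex of the mice, and any pooling of animals are not given in the sources used here. The labels call the samples biological replicates. Ctcf encodes an architectural DNA-binding protein, and regulatory T (Treg) cells, which depend on the factor Foxp3, hold immune responses in check.

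A dividing cell first loads the MCM helicase onto replication origins and fills its pool of deoxynucleotides, which are the tasks of most replication members. Cyclins bound to the kinase Cdk1 then drive it into mitosis, where kinesins and spindle proteins move the chromosomes and a checkpoint holds the cell until every kinetochore is attached. Replication genes are classically regulated by E2F factors, and mitosis genes by the DREAM and MuvB complexes through the cell cycle genes homology region (CHR) and by NF-Y through CCAAT boxes. In tumours, T cells, NK cells, dendritic cell precursors and some macrophages can divide, whereas neutrophils do not.

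Promoters of 5 members are shown because members of a list varied together across the classes and these windows carry, or lack, the motifs just named. RefSeq promoters on GRCm38.p6 were found for 14 of 16 replication members and 20 of 25 mitosis members. Each line gives the 150 bases before the gene's start, 5′ to 3′ on the strand of the gene, and all 5 genes lie on the minus strand. Capitals mark the E2F site (GCGGGAA, its variant GCGCCAA, or its variant GCGCGAA), the CHR (TTTGAA, or its variant TTCGAA) and the CCAAT box, each searched on both strands. Adjoining or overlapping matches are joined in 1 run of capitals.
Mcm6, chr1:128359706-128359855: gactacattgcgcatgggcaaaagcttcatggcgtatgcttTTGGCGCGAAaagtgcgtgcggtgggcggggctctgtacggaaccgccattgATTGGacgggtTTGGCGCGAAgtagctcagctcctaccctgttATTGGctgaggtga
Tyms, chr5:30073626-30073775: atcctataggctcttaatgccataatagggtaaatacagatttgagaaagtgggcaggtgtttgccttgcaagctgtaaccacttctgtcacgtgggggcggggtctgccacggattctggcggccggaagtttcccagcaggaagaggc
Mki67, chr7:135716380-135716529: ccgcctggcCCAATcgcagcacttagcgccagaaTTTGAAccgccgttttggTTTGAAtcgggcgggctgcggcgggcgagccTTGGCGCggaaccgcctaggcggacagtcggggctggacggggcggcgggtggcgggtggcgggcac
Ccnb2, chr9:70421555-70421704: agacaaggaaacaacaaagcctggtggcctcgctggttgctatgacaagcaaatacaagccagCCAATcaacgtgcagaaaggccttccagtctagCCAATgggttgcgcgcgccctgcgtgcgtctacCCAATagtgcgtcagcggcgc
Top2a, chr11:99024190-99024339: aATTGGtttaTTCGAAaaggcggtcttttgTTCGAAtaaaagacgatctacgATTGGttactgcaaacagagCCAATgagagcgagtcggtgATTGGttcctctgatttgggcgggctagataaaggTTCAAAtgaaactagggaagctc

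Over the 250 bases before the start, an E2F site was found in 6 of 14 replication promoters (42.9%) and 3 of 20 mitosis promoters (15%), against 7.68% of all 27025 RefSeq promoters. The CHR was found in 2 of 14 replication promoters (14.3%) and 9 of 20 mitosis promoters (45%), against 19.6% of all. A CCAAT box was found in 10 of 14 and 17 of 20 (71.4% and 85%), against 37.5% of all. E2F matches were thus more frequent among the replication promoters and CHR matches among the mitosis promoters. These matches describe letters only, and the window of Tyms holds none of the 3 motifs.

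The 6 libraries held 45322797 to 55515267 unique molecular identifiers (UMIs, each counting 1 captured transcript) in 41679 barcodes, of which 37148 cells were kept. Gates on marker genes, for cells of at least 2000 UMIs, gave 2292 Treg cells, 1825 conventional CD4 T cells, 9537 CD8 T cells, 1788 natural killer (NK) cells, 9737 monocytes and macrophages and 1167 conventional dendritic cells (cDC). Each class held over 100 cells in every sample. Any pair of libraries shared 41 to 81 cell barcodes. The cko replicates 1 and 3 shared 185 TCR clonotypes, against at most 3 in any other pair. The shared clonotypes held 82.3% of the cells with a clonotype in cko replicate 1 and 69.4% in cko replicate 3. In any other pair they held at most 2.40% of either sample. Whether cko replicates 1 and 3 are independent is therefore in doubt, and the tests below count them as 2 samples. In T cells cko replicate 2 stands apart from the other cko samples, as its member levels below show. Ctcf had 74.4, 83.2 and 92.5 CPM in ctr and 60.96, 80.7 and 62.3 CPM in cko in Treg cells, where CPM is the UMIs of a gene over the gated cells of a sample, scaled to a common library total (log2 difference -0.33, SE 0.15, adjusted p = 0.341 by edgeR's quasi-likelihood test with Benjamini-Hochberg adjustment). The groups overlap, and as the deleted exons are not given in the sources used here, this level does not check the labels. The summed level of 19 dissociation stress genes was lower in every cko sample than in every ctr sample in all classes but NK cells. Its part in the results was not tested.

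Member transcripts separated the classes before any comparison of genotype. The summed level of the mitosis members lay between 1139.8 and 4005 CPM over the samples of the 3 T cell classes, and between 340.4 and 483 CPM in monocytes and macrophages. The sums weigh members by their level. In Treg and NK cells Hmgb2, a chromatin protein, was the most abundant mitosis member and a large part of the mitosis sum. Hmgb2 was also a large part of this sum in the other T cell classes and in cDC, as its values below show. Its CPM in monocytes and macrophages is not given here. In Treg cells the replication members summed to 1066, 828 and 845 CPM in ctr and 577, 1306 and 754 CPM in cko, in the order of replicates 1, 2 and 3. In conventional CD4 T cells they summed to 1278, 1393 and 979 CPM in ctr and 1063, 1856 and 1022 CPM in cko. In CD8 T cells they summed to 1361, 1244 and 1034 CPM in ctr and 944, 1607 and 1088 CPM in cko. These 3 T cell classes overlap, and in each of them cko replicate 2 is the highest cko sample. In NK cells the replication members summed to 1368, 1066 and 704 CPM in ctr and 992, 653 and 914 CPM in cko. In cDC they summed to 821, 649.8 and 740.3 CPM in ctr and 345, 417 and 529 CPM in cko. They summed in monocytes and macrophages to 208, 189 and 206 CPM in ctr and 137, 153 and 146 CPM in cko. Monocytes and macrophages were thus below every other class, and the cDC samples overlap only the lowest Treg and NK samples.

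**Figure D1:**
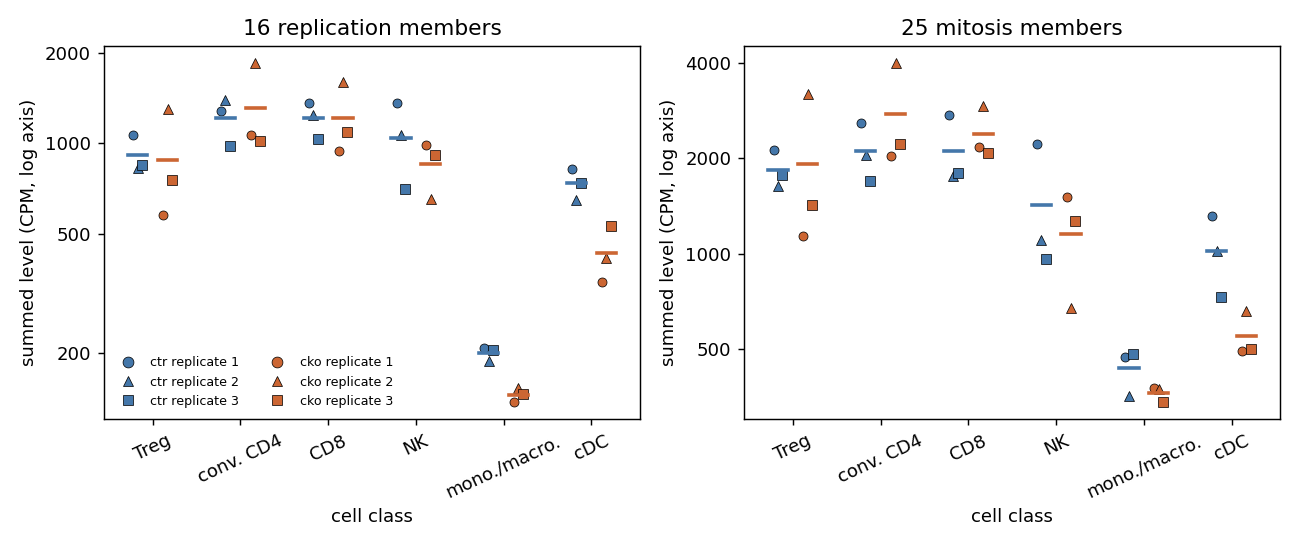
Summed level of the 16 replication members (left) and the 25 mitosis members (right), in CPM on a log axis, for each of the 6 cell classes. The sums weigh members by their level, and Hmgb2 is a large part of the mitosis sum in the T cell classes, NK cells and cDC. Each point is 1 sample, coloured by ctr or cko, and bars are group means; the 3 cko points lie below the 3 ctr points for both lists in cDC and for the replication members in monocytes and macrophages.

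The mitosis members were also lowest in monocytes and macrophages, but the order of NK and Treg cells changed. Over the samples the median mitosis sum was 1185 CPM in NK cells and 1707 CPM in Treg cells. For the replication members it was 953 and 836 CPM. The mitosis members summed to 2125, 1643 and 1771 CPM in ctr and 1139.8, 3200.0 and 1427 CPM in cko in Treg cells. In conventional CD4 T cells the sums were 2591, 2046 and 1700.5 CPM in ctr and 2032, 4005 and 2226 CPM in cko. In CD8 T cells they were 2752, 1767 and 1796 CPM in ctr and 2167, 2933 and 2074 CPM in cko. Neighbouring T cell classes overlap, and cko replicate 2 holds the highest sum in all 3. In NK cells the mitosis members summed to 2222, 1103 and 963 CPM in ctr and 1516, 677 and 1268 CPM in cko. Hmgb2 alone made up 799, 515 and 450 CPM of these in ctr and 706, 464 and 595 CPM in cko. In cDC the sums were 1313, 1024 and 729 CPM in ctr and 493, 661 and 502 CPM in cko, and Hmgb2, whose cDC values are given below, was a large part of each. Monocytes and macrophages had 473, 357 and 483 CPM in ctr and 379, 375 and 340.4 CPM in cko. The ctr and cko ranges of these sums are apart only in cDC. Single members can differ from their sum. In monocytes and macrophages 15 mitosis members were apart between the groups and 10 overlapped. How many of all genes were apart in this class is not given here, so these counts are a description only.

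Treg cells carried less of the members than conventional CD4 T cells of the same tumours. Of 41 members, 23 were lower in Treg cells and none was higher by edgeR's quasi-likelihood test with the sample as a block, where 20.7% of all genes differed and 9.59% were lower. These were 13 of 16 replication members and 10 of 25 mitosis members. The smallest adjusted p-values belonged to Tyms, which makes thymidylate (log2 difference -0.54, SE 0.08, adjusted p = 0.000106), and to the helicase subunits Mcm3 (-0.60, SE 0.10, adjusted p = 0.000205) and Mcm7 (-0.55, SE 0.09, adjusted p = 0.000321). Next came Tacc3, which stabilises spindle fibres (-0.68, SE 0.13, adjusted p = 0.00129), and the PCNA partner Pclaf (-0.90, SE 0.14, adjusted p = 0.00216). Mki67, the proliferation marker Ki-67, did not pass (-0.16, SE 0.23, adjusted p = 0.701). The count was 2 when clusters replaced the gate, and 10 without T and NK cluster 15, which is described below. Shares of all genes called are not given for these 2 fits.

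CD8 T cells and conventional CD4 T cells were closer. Only 4 of 41 members passed, where 26.3% of all genes differed. Cenpa, the histone variant of centromeres, was higher in CD8 T cells (log2 difference 0.66, SE 0.08, adjusted p = 1.74e-05), as were Mcm6 (0.26, SE 0.07, adjusted p = 0.0182) and the origin licensing factor Cdt1 (0.29, SE 0.10, adjusted p = 0.0393). Tyms was lower (-0.31, SE 0.07, adjusted p = 0.0028). With clusters in place of the gate Tyms was at 0.02 (adjusted p = 0.857) and 10 members passed, and 2 passed without ctr replicate 2, without ctr replicate 3 or without cko replicate 3. Shares of all genes that passed are not given for these fits.

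Among myeloid cells the difference was wider. In cDC 38 of the 40 members tested were higher than in monocytes and macrophages, where 61.9% of all genes differed and 30.3% were higher in cDC. The smallest adjusted p-values were those of Tyms (log2 difference 2.29, SE 0.10), Uhrf1, which carries DNA methylation through replication (3.50, SE 0.18), Mcm6 (2.42, SE 0.13), Mcm3 (1.86, SE 0.10) and Mcm5 (2.52, SE 0.14). Hmgb2, a chromatin protein (0.34, adjusted p = 0.0665), and Bub1b, a checkpoint kinase homologue (0.43, adjusted p = 0.302), did not pass. Bub1 was too low in these sums to be tested.

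Member transcripts sat in a minority of cells. After each cell was thinned to 2000 UMIs, a cell was called member-high with at least 5 replication UMIs or at least 8 mitosis UMIs, cuts that were chosen after seeing the data. These cells are a range of a continuous score: 372 of 9537 CD8 T cells lay near the replication cut and 141 near the mitosis cut. Member-high cells made up 8.60% of Treg cells, 11.9% of conventional CD4 T cells, 12.3% of CD8 T cells, 11.6% of NK cells, 8.05% of cDC and 1.03% of monocytes and macrophages. In neutrophils, which should lack these transcripts, the share was 1.23% (2 of 163 cells, both in cko replicate 2, with a lower median of 3389 UMIs among the other cells). Its exact 95% binomial interval of 0.149% to 4.36%, for counting error only, holds the monocyte and macrophage share. In ctr samples 0 of 44 neutrophils were member-high, with an exact 95% interval that reaches up to 8.04%. Before thinning, member-high cells had 1.55 to 3.04 times the median UMIs of the other cells of their class. They held 73.4% of all member UMIs in Treg cells, 78.9% in conventional CD4 T cells, 75.7% in CD8 T cells, 71.1% in NK cells and 58.6% in cDC, but 17.5% in monocytes and macrophages.

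**Figure D2:**
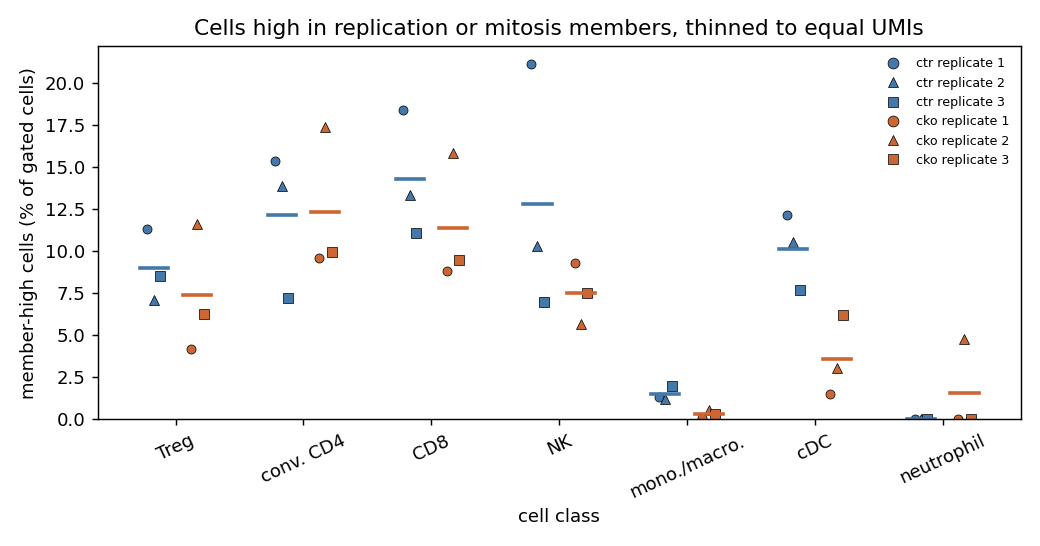
Member-high cells as a percentage of the gated cells of each sample, after thinning every cell to 2000 UMIs, for the 6 classes and for neutrophils as the background class. Points are samples coloured by ctr or cko and bars are group means; cko lies below ctr in every sample in cDC and in monocytes and macrophages, and the other classes overlap.

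The replication and mitosis scores often marked the same cell. Of member-high cells, 53.9% passed both cuts in conventional CD4 T cells, 48.4% in CD8 T cells, 43.1% in Treg cells and 33.3% in NK cells. In cDC 23.4% passed both, and in monocytes and macrophages 13%. The share of member-high cells was 11.3, 7.11 and 8.54% in ctr and 4.19, 11.6 and 6.25% in cko in Treg cells. It was 15.3, 13.9 and 7.23% in ctr and 9.61, 17.4 and 9.92% in cko in conventional CD4 T cells. It was 18.4, 13.3 and 11.1% in ctr and 8.80, 15.8 and 9.45% in cko in CD8 T cells. In these 3 classes the groups overlap and cko replicate 2 is the highest cko sample. In NK cells the share was 21.1, 10.3 and 6.97% in ctr and 9.29, 5.69 and 7.52% in cko, with overlap. In cDC it was 12.1, 10.5 and 7.66% in ctr and 1.53, 3.08 and 6.19% in cko (12.1, 9.18 and 7.23% in ctr and 1.53, 3.08 and 3.54% in cko in cells before thinning, scaled to the same total). In monocytes and macrophages it was 1.32, 1.20 and 1.99% in ctr and 0.0698, 0.527 and 0.323% in cko (1.11, 0.760 and 1.75% in ctr and 0.0698, 0.395 and 0.194% in cko before thinning). All 3 cko samples lie below all 3 ctr samples in both myeloid classes. The smallest 2-sided p that 3 samples against 3 allow in an exact permutation test is over the threshold, so no test of these shares is given.

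In Treg cells, the class in which the labels place the Ctcf knockout, no member passed the test of cko against ctr. The count was 0 of 41 by edgeR's quasi-likelihood test, where 1.52% of all genes passed. It was 0 at an unadjusted p under 0.05 (14.4% of all genes) and 0 by DESeq2 (2.8% of all genes). Log2 differences ran from -0.36 to 0.51, with a median of -0.09 over the replication members and 0.00 over the mitosis members, against 0.02 over all genes. All 41 members overlapped between the groups. For most of the members named below, cko replicates 1 and 3 lay under the ctr samples and cko replicate 2 lay above them. With clusters in place of the gate 16 of 41 members were called, 6 replication and 10 mitosis members, all lower. That setting leaves out T and NK cluster 15, which is described below, and its share of all genes called is not given here.

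Among the replication members, Mcm3 had 71.7, 65.2 and 60.4 CPM in ctr and 38.4, 94.1 and 44.4 CPM in cko in Treg cells (log2 difference -0.17, SE 0.30, adjusted p = 0.871). Mcm5, another helicase subunit, had 56.9, 55.5 and 51.3 CPM in ctr and 33.4, 74.00 and 45.7 CPM in cko (-0.11, SE 0.23). Tyms had 90.9, 72.9 and 66.9 CPM in ctr and 40.9, 108 and 61.6 CPM in cko (-0.15, SE 0.31). For all 3, cko replicates 1 and 3 were the lowest and cko replicate 2 the highest of the 6 samples. Pcna, the sliding clamp of DNA polymerases, had 136, 97.7 and 107 CPM in ctr and 88.5, 126 and 94.7 CPM in cko (-0.18, SE 0.18). Among the mitosis members, Mki67 had 115, 93.9 and 86.5 CPM in ctr and 55.9, 148 and 68.2 CPM in cko (-0.14, SE 0.34, adjusted p = 0.914). Ki-67 coats mitotic chromosomes, and cko replicate 2 was again the highest sample. Top2a, which untangles sister DNA, had 144, 108 and 107 CPM in ctr and 77.7, 172 and 94.04 CPM in cko (-0.09, SE 0.28). Ccnb1, the mitotic cyclin B1, had 33.2, 20.2 and 20.5 CPM in ctr and 4.18, 64.6 and 9.27 CPM in cko (0.19, SE 0.84). For Ccnb1 the 3 cko samples span both sides of the whole ctr range.

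The cko replicate 2 Treg cells differed in their make-up. T and NK cluster 15 held 101 of its 275 gated Treg cells (36.7%), against 0.855% to 4.33% in the other samples. The cluster is left unnamed: its median was 1992.5 UMIs and its leading genes were Ttn, Ikzf2, Cd83, Slamf6 and Lrig1. Its cells in cko replicate 2 summed to 2107 CPM of replication members and 5088 CPM of mitosis members. Beside this, B and plasma cell markers summed to 131 CPM in the Treg cells of cko replicate 2 against 8.60 to 16.6 CPM elsewhere, and neutrophil markers to 132 CPM against 0 to 3.55 CPM. Their part in the member levels was not tested.

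In Treg cells outside cluster 15, the replication members summed to 1065, 817 and 834 CPM in ctr and 579.9, 509 and 634 CPM in cko. The mitosis members summed to 2067, 1607 and 1775 CPM in ctr and 1149.6, 1322 and 1297 CPM in cko. In 28 of 41 members every cko sample lay below every ctr sample there, and the other 13 overlapped. The share of all genes so ordered is not given here. Mki67 had 107, 93.1 and 86.1 CPM in ctr and 55.7, 44.5 and 55.7 CPM in cko, and the kinase Cdk1 had 41.8, 47.9 and 38.4 CPM in ctr and 15.4, 13.3 and 23.3 CPM in cko. The median log2 difference was -0.66 over the replication members and -0.97 over the mitosis members. The cluster was chosen after its member levels were seen, and leaving it out removes 101 cells of cko replicate 2 but 4 to 14 of any other sample, so leaving it out lowers cko replicate 2 by construction and these values are a description with no test. Leaving out cko replicate 2 altogether removes the highest cko sample, so it also lowers cko by construction. It leaves cko replicates 1 and 3, which share 185 clonotypes. In that fit 8 members were lower by edgeR's quasi-likelihood test, where 1.21% of all genes were lower. They include Cdc20, an activator of the anaphase ligase (-2.02), Ccnb1 (-1.84) and Cdk1 (-1.04), and this too is a description only. Within T and NK cluster 10, the largest of the Treg clusters, the replication members summed to 1105, 865 and 857 CPM in ctr and 665, 494 and 712 CPM in cko. The mitosis members there summed to 2133, 1669.9 and 1832 CPM in ctr and 1281, 677 and 1189.9 CPM in cko. Every cko sample is below every ctr sample in both sums, cko replicate 2 included. Cluster 10 alone also leaves out cluster 15, so cko replicate 2 is again lowered by construction. It held 37.8% of the gated Treg cells of cko replicate 2 and 80.7% to 90.2% of those of the ctr samples. In cko replicates 1 and 3 it held 67.0% and 65.4%, and these sums are a description only.

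**Figure D3:**
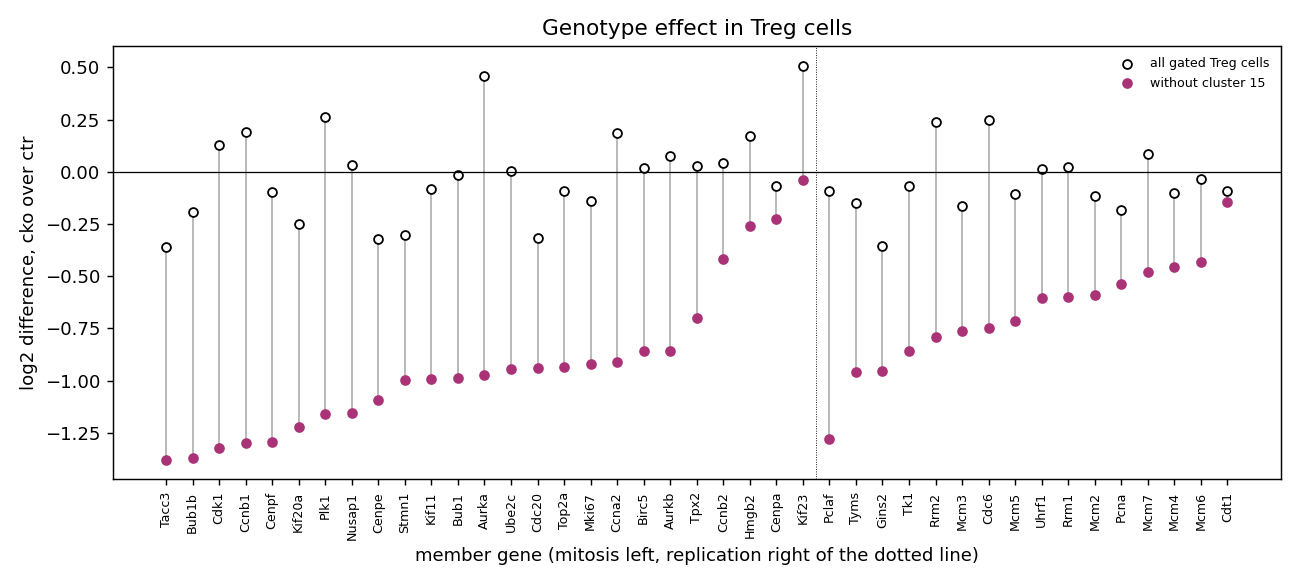
Log2 difference of cko against ctr for each of the 41 members in Treg cells, with open circles for all gated cells and filled circles for cells outside T and NK cluster 15, a cluster chosen after its member levels were seen. The open circles scatter around 0 and none passed, and all filled circles lie below 0, for which no test is given.

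Against conventional CD4 T cells of the same tumours, the genotype difference in Treg cells was lower for 2 of 41 members, where 1.89% of all genes passed this interaction test and 1.07% were lower. Mki67 had 111, 74.01 and 53.3 CPM in ctr and 95.00, 185 and 112 CPM in cko in conventional CD4 T cells, beside the Treg values above. The difference of the log2 differences was -0.99 (SE 0.17, adjusted p = 0.00172 by edgeR's quasi-likelihood test). Hmgb2 had 789, 622 and 756 CPM in ctr and 598, 1275 and 652 CPM in cko in Treg cells. In conventional CD4 T cells it had 978, 897 and 792 CPM in ctr and 1045, 1757 and 1032 CPM in cko, where every cko sample is above every ctr sample. The difference of its log2 differences was -0.43 (SE 0.10, adjusted p = 0.0324). The call for Hmgb2 was lost by DESeq2 (adjusted p = 0.126), without ctr replicate 1 (0.118), without ctr replicate 3 (0.233), without cko replicate 1 (0.182) and without cko replicate 3 (0.169). Both calls were lost in cells thinned to equal UMIs (Mki67 at -0.64, adjusted p = 0.523; Hmgb2 at -0.42, adjusted p = 0.0539), with clusters in place of the gate (0.301 and 0.351) and without cluster 15 (0.0749 and 0.142). The call for Hmgb2 was also lost without TMM scaling, with doublets kept and with cko replicates 1 and 3 added together. Over all mitosis members the median of this difference was -0.53 in all gated cells, -1.63 with clusters and -1.12 without cluster 15. The last 2 settings both leave out cluster 15, which lowers cko replicate 2 by construction, so these medians are a description only. Different clusters held most of the conventional CD4 T cells in the groups: T and NK cluster 18 held 27.8% of them in ctr and 55.7% in cko, cluster 9 held 38.9% and 21.7%, and cluster 10 held 17.7% and 3.10%. Of these cells 17.8% were member-high in cluster 18, 4.66% in cluster 9 and 9.35% in cluster 10. Among Treg cells cluster 10 held 84.4% in ctr and 54.6% in cko. The part of these shares in the result was not tested.

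In conventional CD4 T cells no member passed, and neither did any gene of the whole table (0% of 9345). By edgeR's quasi-likelihood test 1 member was at an unadjusted p under 0.05 (7.03% of all genes), and DESeq2 called 0 (0.503% of all genes). The median log2 difference was 0.15 over the replication members and 0.37 over the mitosis members. Top2a had 176, 127 and 107 CPM in ctr and 114, 175 and 138 CPM in cko, and Ccnb1 had 25.01, 8.58 and 18.4 CPM in ctr and 15.5, 66.2 and 20.8 CPM in cko. Mcm3 had 90.8, 123 and 71.04 CPM in ctr and 72.6, 132 and 67.8 CPM in cko. The groups overlap for all 3, and cko replicate 2 is high in Ccnb1. Mcm5 had 67.8, 90.1 and 52.01 CPM in ctr and 62.3, 93.4 and 57.5 CPM in cko. Tyms had 125, 116 and 87.5 CPM in ctr and 73.6, 148 and 77.7 CPM in cko. Pcna had 124, 180.2 and 102 CPM in ctr and 119, 169 and 112 CPM in cko. None of these separates the groups, and of all members only Hmgb2 did.

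In CD8 T cells no member passed either, where 2.97% of all genes did, and 19.5% were at an unadjusted p under 0.05. The single member at an unadjusted p under 0.05 by edgeR was Hmgb2, with 887, 727 and 738 CPM in ctr and 1005, 1219 and 983 CPM in cko (log2 difference 0.41, SE 0.12, adjusted p = 0.107), and DESeq2 called 0 (5.63% of all genes). Hmgb2 was higher in every cko sample than in every ctr sample. Mki67 had 136, 68.2 and 75.9 CPM in ctr and 87.7, 118 and 91.3 CPM in cko. Top2a had 241, 135 and 128 CPM in ctr and 124, 158 and 129.7 CPM in cko, and Ccnb1 had 25.5, 17.8 and 16.8 CPM in ctr and 17.7, 37.8 and 15.7 CPM in cko. For these mitosis members the highest ctr sample is above some cko samples. Mcm3 had 86.5, 98.1 and 73.01 CPM in ctr and 57.6, 103 and 68.6 CPM in cko. Mcm5 had 69.3, 79.9 and 65.01 CPM in ctr and 53.5, 87.04 and 59.98 CPM in cko. Tyms had 88.9, 77.3 and 70.5 CPM in ctr and 63.1, 108 and 68.3 CPM in cko. All 3 overlap. Pcna had 139, 129 and 118 CPM in ctr and 101, 141 and 111 CPM in cko, also with overlap. The median log2 difference was -0.04 over the replication members and 0.00 over the mitosis members.

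NK cells held no called member among 40 tested, where 3.81% of all genes passed and 18.9% were at an unadjusted p under 0.05. By edgeR 1 member was at an unadjusted p under 0.05, the helicase subunit Mcm6 with 145, 134 and 104 CPM in ctr and 112, 86.8 and 123 CPM in cko (log2 difference -0.34, SE 0.14, adjusted p = 0.199), and DESeq2 called 0 (2.88% of all genes). The log2 difference was negative for 15 of 16 replication members and all 24 mitosis members tested, with medians of -0.29 and -0.68, while no member separated the groups. Aurka, the spindle pole kinase, was too low to be tested. Mki67 had 113, 57.7 and 38.3 CPM in ctr and 73.8, 15.5 and 84.9 CPM in cko. Top2a had 182, 74.2 and 69.02 CPM in ctr and 107, 23.2 and 88.1 CPM in cko. Ccnb1 had 18.8, 7.91 and 4.87 CPM in ctr and 8.996, 1.72 and 8.86 CPM in cko. The ctr samples spread more widely than the groups differ, with ctr replicate 1 the highest. Mcm3 had 99.6, 88.4 and 53.9 CPM in ctr and 81.6, 70.5 and 71.8 CPM in cko. Mcm5 had 73.3, 81.5 and 45.3 CPM in ctr and 67.8, 42.99 and 62.96 CPM in cko. Tyms had 90.8, 54.7 and 39.9 CPM in ctr and 55.8, 36.1 and 39.2 CPM in cko. The order of samples is not the same for the 3. Pcna had 129, 108 and 79.7 CPM in ctr and 104, 87.7 and 102 CPM in cko. The median UMIs per NK cell lay between 10120.5 and 11706 in ctr and between 6657 and 8745 in cko, and after thinning 1 of 21 members tested was called, lower in cko. For that fit the share of all genes called is not given here.

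In monocytes and macrophages 24 members fell and 1 rose, of 41 tested by edgeR's quasi-likelihood test. Of all genes 22.8% passed in this class, 10.6% lower and 12.2% higher. Among the replication members 11 fell and Mcm4 rose, and among the mitosis members 13 fell. The median log2 difference was -0.99 over the replication members and -1.18 over the mitosis members, against -0.01 over all genes. DESeq2 called 25 members (21.2% of all genes). In 13 replication and 15 mitosis members all cko samples lay below all ctr samples. The share of all genes ordered in this way is not given here, so these counts are a description only.

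The helicase subunits did not move as one in these cells. Mcm6 had 11.7, 12.3 and 11.9 CPM in ctr and 4.66, 6.85 and 5.19 CPM in cko and fell by 1.06 (log2, SE 0.15, adjusted p = 0.00124). Mcm3 had 19.2, 20.1 and 19.03 CPM in ctr and 6.89, 11.6 and 9.74 CPM in cko and fell by 0.99 (SE 0.15, adjusted p = 0.00215). Mcm7 had 11.5, 8.31 and 9.52 CPM in ctr and 3.04, 5.22 and 3.19 CPM in cko and fell by 1.32 (SE 0.22, adjusted p = 0.0029). In all 3 the groups are apart, with cko replicate 2 the highest cko sample. Mcm5 had 6.86, 8.94 and 7.87 CPM in ctr and 3.85, 4.403 and 3.27 CPM in cko and fell by 0.99, and Mcm2 fell by 1.03. Mcm4 had 18.2, 18.8 and 18.4 CPM in ctr and 25.2, 28.9 and 18.99 CPM in cko and rose by 0.47 (SE 0.15, adjusted p = 0.0476). Its cko replicate 3 sits just above the ctr samples. Its call was lost without TMM scaling, with the doublets kept, with no UMI minimum, without cluster 20, and without any 1 of the ctr replicates, cko replicate 1 or cko replicate 2. Gins2, a part of the active helicase, fell by 0.80, while the loading factors Cdc6 (-0.76, adjusted p = 0.222) and Cdt1 (-0.29, adjusted p = 0.203) did not pass.

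Of 4 enzymes that supply deoxynucleotides, 3 also fell. Tk1, thymidine kinase, had 11.6, 8.60 and 11.2 CPM in ctr and 1.22, 2.94 and 2.07 CPM in cko and fell by 2.31 (log2, SE 0.25, adjusted p = 0.000428). Rrm2, the regulated subunit of ribonucleotide reductase, had 3.43, 4.24 and 4.76 CPM in ctr and 0.811, 1.63 and 0.958 CPM in cko and fell by 1.87 (SE 0.28, adjusted p = 0.00202). Tyms had 8.29, 7.30 and 8.22 CPM in ctr and 4.56, 4.73 and 4.63 CPM in cko and fell by 0.69 (SE 0.15, adjusted p = 0.00979). For each of these enzymes the highest cko sample is below the lowest ctr sample. Rrm1, the large reductase subunit, was at -0.36 (adjusted p = 0.0935). Pclaf fell by 2.37 and Uhrf1 by 1.27. Pcna had 58.5, 51.9 and 63.7 CPM in ctr and 60.5, 59.04 and 67.99 CPM in cko and did not pass (0.19, adjusted p = 0.217), with the groups overlapping.

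Of the mitosis members, Ccnb2, cyclin B2, had 10.1, 6.08 and 11.9 CPM in ctr and 1.01, 2.12 and 1.12 CPM in cko in monocytes and macrophages. On the log2 scale it fell by 2.73 (SE 0.36, adjusted p = 0.00121). Ccna2, cyclin A2, had 3.11, 3.15 and 4.17 CPM in ctr and 0.507, 1.47 and 0.559 CPM in cko and fell by 2.11 (SE 0.36, adjusted p = 0.0036). Both cyclins are apart between the groups, with cko replicate 2 nearest to ctr. Ccnb1 had 2.15, 1.68 and 4.76 CPM in ctr and 0.406, 1.79 and 0.239 CPM in cko and did not pass (-2.01, adjusted p = 0.0723). Stmn1, a microtubule destabiliser, had 15.9, 12.5 and 18.6 CPM in ctr and 3.95, 6.03 and 5.11 CPM in cko and fell by 1.58 (SE 0.20, adjusted p = 0.00071). The kinases Cdk1, Plk1 and Aurkb fell by 1.18, 2.23 and 1.15. Cdc20 fell by 2.07, the kinesin Kif20a by 2.28, and Birc5, the survivin of the chromosomal passenger complex, by 2.16. Cenpe, Cenpf, Tpx2 and Tacc3 fell by 1.57, 1.96, 1.26 and 0.75. Mki67 had 18.8, 9.19 and 16.9 CPM in ctr and 7.60, 12.9 and 7.98 CPM in cko (-0.60, adjusted p = 0.204). Top2a had 10.5, 7.80 and 10.7 CPM in ctr and 3.85, 9.62 and 3.43 CPM in cko (-0.81, adjusted p = 0.134). The commonly used markers Mki67 and Top2a overlap between the groups through cko replicate 2. The other 9 mitosis members that did not pass are Ube2c, Cenpa, Nusap1, Kif11, Bub1, Kif23, Hmgb2, Bub1b and Aurka.

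**Figure D4:**
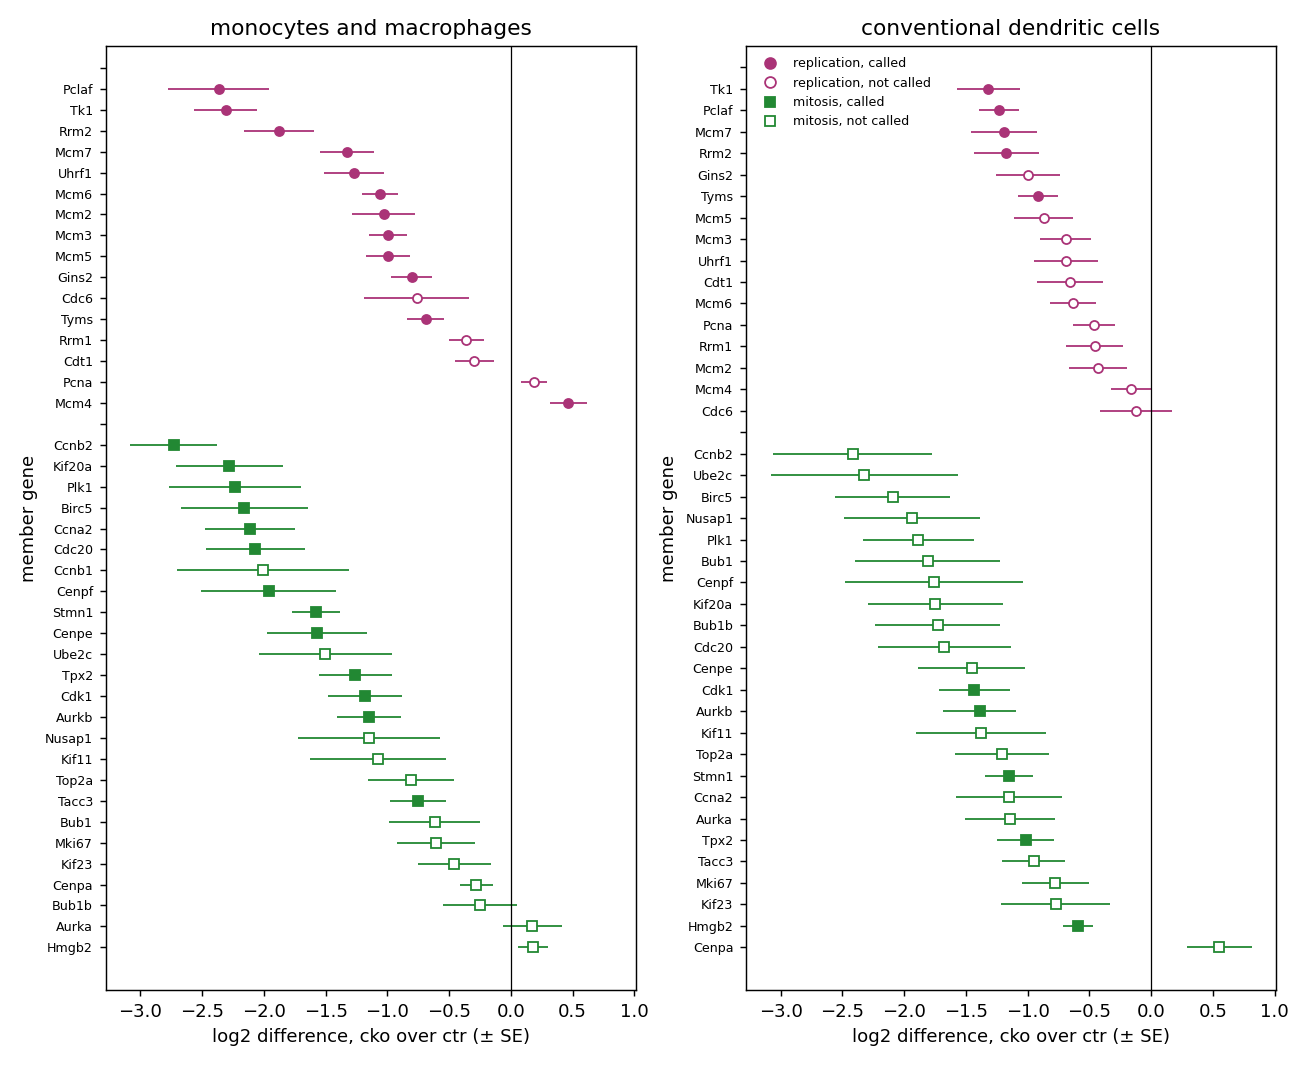
Log2 difference of cko against ctr, with its SE, for each member in monocytes and macrophages (left) and in conventional dendritic cells (right), with filled points where the adjusted p was under 0.05. Most members lie below 0 in both classes, 25 are filled on the left and 10 on the right.

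The member-high cells of this class lay mostly in 1 cluster. Cluster 20, led by Ccl8, Ms4a7 and C1qa, held 17.8%, 10.6% and 19.98% of the gated monocytes and macrophages in ctr and 1.68%, 1.05% and 3.49% in cko. Of the 100 member-high monocytes and macrophages 75 were in it. Within it, 72 of 932 ctr cells (7.73%) and 3 of 86 cko cells (3.49%) were member-high. Without cluster 20, an alternative chosen after seeing the data, 5 of 35 members tested (14.3%) were lower, where 5.98% of all genes were. All 5 are replication members, Mcm3 (-0.80), Mcm7 (-1.06), Rrm2 (-1.26), Mcm6 (-0.78) and Mcm5 (-0.83). The 2 largest other clusters also differed in share. Cluster 5, led by Inhba, Nos2 and Ptgs2, held 19.6%, 12.5% and 11.96% of the class in ctr and 62.5%, 57.8% and 52.2% in cko. Cluster 6, led by Apoc2, Apoe and C1qb, held 32.7%, 47.1% and 37.5% in ctr and 8.94%, 10.9% and 9.11% in cko.

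The replication sums were apart within 2 of the 4 clusters examined that held at least 20 cells in every sample. In cluster 5 they summed to 156, 148 and 153 CPM in ctr and 136, 141 and 133 CPM in cko. In cluster 6 they summed to 205, 151 and 158 CPM in ctr and 147, 147 and 143 CPM in cko. In both clusters all cko samples lie below all ctr samples, while the mitosis sums, which include Hmgb2, overlap. In cluster 7 the replication sums were 127, 125 and 133 CPM in ctr and 144, 123 and 149.8 CPM in cko, with cko replicates 1 and 3 above all ctr samples. In cluster 9 they were 115, 119 and 146 CPM in ctr and 89.5, 203 and 131 CPM in cko, with cko replicate 2 the highest of all. Beside the class result, the 14 macrophage markers summed to 36421 to 39269.9 CPM in ctr and 22585 to 24094 CPM in cko, with 2 of 14 higher in cko and none at 0. The 19 stress genes summed to 28373 to 29983 CPM in ctr and 19787 to 23232 CPM in cko. The 8 tumour and stroma markers summed to 7.26 to 12.9 CPM in ctr and 18.7 to 22.8 CPM in cko, with 4 of 8 higher and 2 (Krt19 and Cldn4) at 0. The part of these levels in the member differences was not tested. Leaving out cko replicate 1 left 15 members called, and in thinned cells 9 of 25 tested were called, where 14.4% of all genes were. Over the fits that leave out 1 replicate, 1240 to 2744 of all genes were called.

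**Figure D5:**
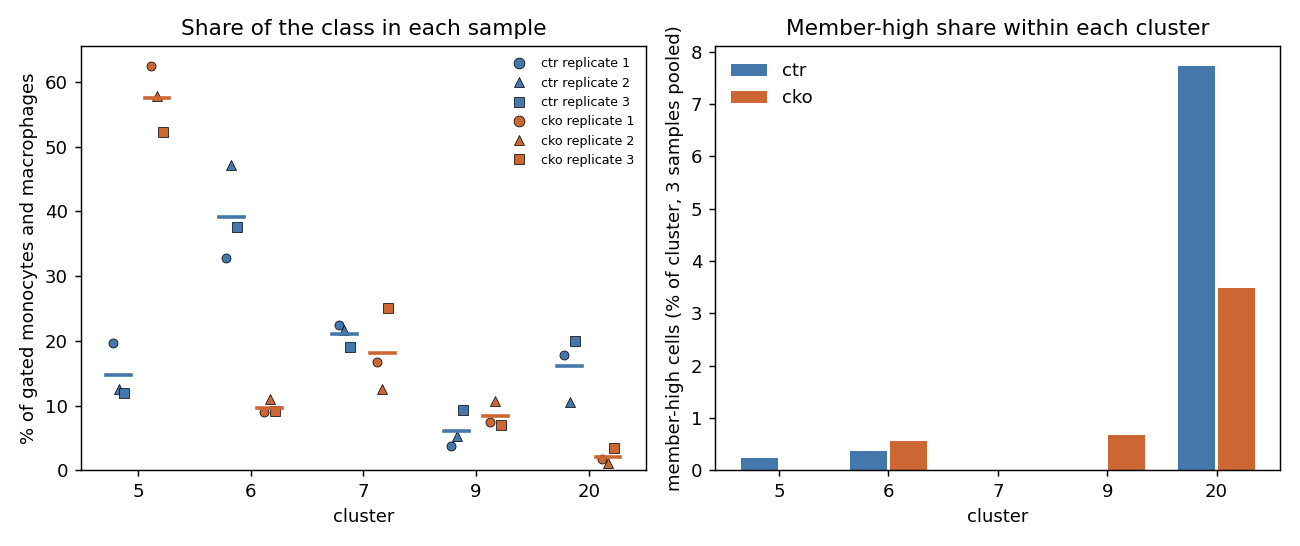
Left, percentage of gated monocytes and macrophages in clusters 5, 6, 7, 9 and 20 for each sample; right, percentage of the cells of each cluster that were member-high, with the 3 samples of a group pooled. Cluster 20 has the highest member-high share and holds 10.6% to 19.98% of the class in ctr samples but 1.05% to 3.49% in cko samples.

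In cDC 10 of the 40 members tested fell and none rose by edgeR's quasi-likelihood test, where 3.18% of all genes passed and 1.16% were lower. They are 5 replication members (Pclaf, Tyms, Tk1, Rrm2 and Mcm7) and 5 mitosis members (Stmn1, Cdk1, Hmgb2, Aurkb and Tpx2). In all 34 members were lower at an unadjusted p under 0.05 (18.3% of all genes in either direction), and DESeq2 called 14 (3.96% of all genes). The median log2 difference was -0.69 over the replication members and -1.41 over the mitosis members, against 0.00 over all genes. In 10 replication and 12 mitosis members every cko sample lay below every ctr sample, and the share of all genes so ordered is not given here.

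Pclaf had 122, 101 and 95.99 CPM in ctr and 41.3, 38.1 and 53.6 CPM in cko in cDC and fell by 1.23 in log2 (SE 0.16, adjusted p = 0.00463). Tyms had 43.3, 41.1 and 41.6 CPM in ctr and 16.9, 27.04 and 22.2 CPM in cko and fell by 0.92 (SE 0.16, adjusted p = 0.0152). Tk1 had 52.2, 30.3 and 30.3 CPM in ctr and 12.9, 15.98 and 15.7 CPM in cko and fell by 1.32 (SE 0.26, adjusted p = 0.0246). All 3 act at the replication fork or in thymidylate supply, and the groups are apart. Rrm2 had 37.5, 24.2 and 27.6 CPM in ctr and 9.95, 11.1 and 17.9 CPM in cko and fell by 1.17 (SE 0.26, adjusted p = 0.0403). Mcm7 fell by 1.19 (adjusted p = 0.0499). Mcm3 had 72.9, 60.9 and 68.1 CPM in ctr and 25.4, 46.7 and 51.96 CPM in cko and did not pass (-0.69, adjusted p = 0.103). Its cko samples lie below ctr, cko replicate 1 furthest. Mcm5 had 47.4, 43.8 and 46.4 CPM in ctr and 12.9, 31.3 and 30.8 CPM in cko (-0.87, adjusted p = 0.0843). Pcna had 102, 83.8 and 100.1 CPM in ctr and 66.7, 54.1 and 82.3 CPM in cko (-0.46, adjusted p = 0.178). Both are lower in every cko sample but missed the threshold.

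Stmn1 had 82.8, 58.5 and 56.2 CPM in ctr and 25.4, 37.5 and 25.4 CPM in cko in cDC and fell by 1.15 in log2 (SE 0.19, adjusted p = 0.0131). Cdk1 had 36.8, 23.6 and 19.3 CPM in ctr and 7.47, 10.4 and 11.4 CPM in cko and fell by 1.43 (SE 0.29, adjusted p = 0.0267). Hmgb2 had 508, 433 and 367 CPM in ctr and 265, 316 and 272 CPM in cko and fell by 0.59 (SE 0.12, adjusted p = 0.0299). In each the 3 cko samples are the lowest. Aurkb, the kinase of the passenger complex, had 25.5, 19.6 and 13.1 CPM in ctr and 6.47, 6.76 and 8.66 CPM in cko and fell by 1.39 (SE 0.30, adjusted p = 0.0342). Tpx2, a spindle assembly factor, fell by 1.02 (adjusted p = 0.0456). Mki67 had 45.3, 40.9 and 22.3 CPM in ctr and 15.4, 23.3 and 24.4 CPM in cko and did not pass (-0.77, adjusted p = 0.166). Its ctr replicate 3 is within the cko range. Top2a had 75.9, 52.6 and 35.7 CPM in ctr and 12.4, 37.5 and 22.2 CPM in cko (-1.20, adjusted p = 0.146), and Ccnb1, with 14.5, 9.90 and 3.57 CPM in ctr and 1.99, 3.69 and 2.16 CPM in cko, was too low to be tested.

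These calls rest on few cells. Each cko sample held 113 to 131 cDC, against 235 to 294 in ctr. The count was 5 without ctr replicate 1, 7 without ctr replicate 2, 1 without cko replicate 1 and 2 without cko replicate 3. With cko replicates 1 and 3, which share clones, added together the count was 1. It was 0 with the marked doublets kept, which held 25.8% member-high cells among 62 against 7.37% among the kept cDC. Shares of all genes called are not given for these fits. Over those that leave out 1 replicate, the number of all genes called also moved, from 60 to 680. Cluster 8 held 87.1% of ctr and 78.6% of cko cDC, and 11.1% and 4.08% of its cells were member-high. Beside this result, macrophage markers summed to 820.4 to 1246 CPM in ctr cDC and 1669 to 1999 CPM in cko cDC, with 9 of 14 higher in cko and none at 0. NK markers summed to 103 to 124 CPM in ctr and 162 to 285 CPM in cko, with 4 of 8 higher and none at 0. Tumour and stroma markers summed to 43.8 to 58.5 CPM in ctr and 16.8 to 26.4 CPM in cko, with 4 of 8 higher and 2 (Krt19 and Col1a2) at 0. The stress genes summed to 19553 to 24587 CPM in ctr and 16846 to 19278 CPM in cko. Their part in the result was not tested.

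The genotype difference in each myeloid class was then set against that in CD8 T cells, with the sample as a block, in interaction tests added after seeing the data. In monocytes and macrophages it was lower than in CD8 T cells for 18 of 41 members, where 9.81% of all genes passed and 5.35% were lower. The smallest adjusted p-values by edgeR belonged to Mcm6 (-1.05, SE 0.13, adjusted p = 0.00112), Rrm2 (-2.18, SE 0.29, adjusted p = 0.00149) and Cdk1 (-1.52, SE 0.20, adjusted p = 0.00152), followed by Pclaf (-2.47) and Tk1 (-1.98). In cDC it was lower than in CD8 T cells for 13 of 41, where 2.02% of all genes passed and 1.03% were lower. These were led by Hmgb2 (-1.01, SE 0.10, adjusted p = 0.000198), Birc5 (-2.20, SE 0.25, adjusted p = 0.00127) and Cdk1 (-1.73, SE 0.24, adjusted p = 0.00186), followed by Stmn1 (-0.92) and Plk1 (-2.19). No member passed in the other direction in either test, although 2 replication members did for monocytes and macrophages in thinned cells. The counts were 10 without cko replicate 1 and 11 without cko replicate 3 for monocytes and macrophages, and 8 without ctr replicate 1 and 6 without cko replicate 1 for cDC. For cDC the count was 7 with cko replicates 1 and 3 added together and 1 in thinned cells, and for monocytes and macrophages it was 8 in thinned cells. Shares of all genes called are not given for these alternatives. The CD8 T cells of the groups also lay in different clusters: T and NK cluster 4 held 34.6% of them in ctr and 13.3% in cko, and cluster 2 held 6.34% and 22.1%. Of their cells 6.98% and 16.7% were member-high, and the part of this in the result was not tested.

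Further genes of the pathway were counted from 4 lists: 51 other replication genes, 59 other mitosis genes, 17 drivers of cell cycle entry and 29 brakes. Of 47 other replication genes tested in monocytes and macrophages, where 10.6% of all genes were lower and 12.2% higher, 14 fell and none rose. The histone chaperone Asf1b fell by 1.65 (adjusted p = 0.0007 by edgeR) and the polymerase subunit Pola1 by 1.27. Of 48 other mitosis genes, 19 fell and 2 rose, with Kif4 (-3.63), Anln (-2.72), Smc2 (-0.89) and Cdca3 (-2.12) among those that fell. In cDC, where 1.16% of all genes were lower, 2 of 48 other replication genes fell, Dut (-0.88) and Gmnn (-0.80), and 7 of 39 other mitosis genes, among them the kinetochore gene Spc24 (-1.43, adjusted p = 0.0069), Cdca8 (-1.81), Cenpm (-1.18) and Cdca3 (-1.47).

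In Treg cells 1 of 48 other replication genes tested passed, where 1.52% of all genes did. Lig1, the ligase that joins Okazaki fragments, had 199, 168 and 186 CPM in ctr and 61.8, 69.5 and 62.9 CPM in cko and fell by 1.55 (log2, SE 0.13, adjusted p = 0.0013 by edgeR). Unlike the members, Lig1 was low in all 3 cko samples, cko replicate 2 included. Its difference was larger than in conventional CD4 T cells, where it had 138, 112 and 83.1 CPM in ctr and 73.2, 82.9 and 76.9 CPM in cko (interaction -1.11, SE 0.16, adjusted p = 0.000422). Nuf2, a kinetochore gene, also passed this interaction test (-1.71, adjusted p = 0.033). No gene of the other lists passed in Treg cells, and none of the 4 lists held a called gene in conventional CD4 T cells.

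Among drivers, CD8 T cells had lower Myc, a growth factor-induced transcription factor, with 76.6, 101 and 89.9 CPM in ctr and 22.1, 34.01 and 35.2 CPM in cko (-1.59, SE 0.18, adjusted p = 0.00751 by edgeR). They also had lower Cdk6, a cyclin D-dependent kinase, with 146, 119 and 154 CPM in ctr and 79.2, 79.2 and 93.8 CPM in cko (-0.77, adjusted p = 0.013). For both genes every cko sample is below every ctr sample, while the CD8 members other than Hmgb2 overlap. These were 2 of 16 drivers tested, where 2.97% of all genes passed. In NK cells the cyclin Ccnd1 rose by 1.52 (adjusted p = 0.0248) and its kinase Cdk4 fell by 0.40 (adjusted p = 0.0339), which were 2 of 16 tested, where 3.81% of all genes passed. The call for Cdk4 was lost by DESeq2 (adjusted p = 0.0562). Ccnd1 had 5.61, 9.23 and 11.5 CPM in ctr and 30.6, 34.4 and 18.7 CPM in cko in NK cells and 248, 455 and 518 CPM in ctr and 437, 382 and 431 CPM in cko in cDC. Beside this, the 12 cDC markers summed to 16.8 to 27.7 CPM in ctr NK cells and 76.0 to 239.9 CPM in cko NK cells, with 10 of 12 higher and 1 at 0. The 14 macrophage markers summed to 600.2 to 775 CPM in ctr and 1041 to 1473 CPM in cko, with 8 of 14 higher and none at 0. Their part in the Ccnd1 level was not tested. In monocytes and macrophages Skp2 (-1.52, adjusted p = 0.00828) and E2f1 (-0.51, adjusted p = 0.0137) fell, which were 2 of 13 tested (22.8% of all genes passed), and in cDC none of 13 passed. E2f1 lay between -0.53 and -0.20 in the other classes without passing. Myc did not pass outside CD8 T cells, with log2 differences from -0.37 to -0.05. The cyclins Ccnd2 and Ccnd3 passed in no class, and neither did Foxm1, an activator of mitosis genes, in the 3 T cell classes where it could be tested.

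Among brakes, Cdkn1a, which encodes the CDK inhibitor p21, rose in both myeloid classes. It had 1132, 1079 and 1126 CPM in ctr and 1727, 2051 and 1623 CPM in cko in monocytes and macrophages (0.77, SE 0.10, adjusted p = 0.0007 by edgeR). In cDC it had 402, 388 and 576 CPM in ctr and 1116, 781 and 949 CPM in cko (1.09, SE 0.21, adjusted p = 0.0345). Every cko sample is above every ctr sample in both. It did not pass in Treg cells (0.01), conventional CD4 T cells (0.12), CD8 T cells (0.20) or NK cells (0.63). Cdkn1b, which encodes p27, passed in none, and was nearest in NK cells (0.48, adjusted p = 0.0538). Of 26 brakes tested in monocytes and macrophages 5 rose and 8 fell, beside the 12.2% and 10.6% of all genes. After Cdkn1a the smallest adjusted p-values were those of Lin54, a DNA-binding subunit of MuvB (1.32), Klf2 (-0.62) and Pkmyt1, an inhibitory kinase of Cdk1 (-1.33). In cDC, where 3.18% of all genes passed, 1 of 24 rose and 2 fell, Pkmyt1 (-0.98) and Cdkn2d (-0.88). Gadd45b, a stress-induced gene, rose in CD8 T cells (0.77, adjusted p = 0.00751) and NK cells (0.82, adjusted p = 0.0408). Gadd45g fell in CD8 T cells (-0.59), and Btg1, an antiproliferative gene, rose in NK cells (0.38).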

How the data were processed

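The authors deposited raw UMI counts per gene and barcode, made with Cell Ranger 7.0.0 on GRCm38 (mm10), per the submitters' processing notes. The sources used here do not say whether doublets or free RNA had been removed. Barcodes were required to have 300 genes and 500 UMIs or more, with mitochondrial counts of 10% or less (39424 passed). Of these, 2276 with the highest Scrublet scores were removed as doublets, at a rate set by the number of barcodes, since the automatic call marked 0.353%. Classes were gated on UMIs of marker genes per 10000, clusters came from Leiden (resolution 1, and 1.5 for T and NK cells) without cell cycle genes, and doubtful clusters were left unnamed. Counts were summed per sample and class and tested with edgeR 4.0.16 (TMM, filterByExpr, quasi-likelihood, R 4.3.3) over all genes, threshold 0.05 after Benjamini-Hochberg adjustment. The interaction and class tests held the sample as a block. DESeq2 1.42.0 was an alternative, and others are in the closing section. Levels are CPM of these sums, fold changes are on edgeR's log2 scale, and n = 3 samples a group throughout. The cko replicates 1 and 3, which share clones, count as 2 of these samples. What the p-values measure is the spread among these samples.

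The members, gene lists and alternatives were chosen with earlier results of these data known. Up to 8 called members per class with the smallest adjusted p, and always Mki67, Top2a, Ccnb1, Mcm5, Mcm3, Tyms and Pcna, are given per sample. Up to 5 are named per interaction or class difference, and up to 4 called genes per other list, with Cdkn1a, Cdkn1b, Ccnd2, Ccnd3, E2f1, Foxm1 and Myc always looked at. Other members are given by counts, or named after their values were seen. How reads shared with pseudogenes or antisense genes were counted is not stated in those sources, so levels of members with near-identical copies are uncertain. On simulated Treg sums of 9836 genes, 6% of 1.5-fold, 43.3% of 2-fold and 92.4% of 4-fold changes were called, beside 10 false calls. The simulation gave every gene the same dispersion between samples. Treg members such as Mki67 and Ccnb1 spread widely over the cko samples, so these rates need not hold for them. Replicate numbers were not taken as pairs: within a class, the correlations of same-numbered samples ran from -0.0823 to 0.183. Some genes of the wider lists are not reported here by name.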

Additional observations from a re-analysis of the deposited data

Results flagged for a closer look

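The genotype difference differed between cell classes by a test of the difference itself for these members. Between Treg cells and conventional CD4 T cells it differed for Mki67 (-0.99 on the log2 scale) and for Hmgb2 (-0.43). Both calls were lost in thinned cells (adjusted p = 0.523 and 0.0539), with clusters in place of the gate and without T and NK cluster 15. That for Hmgb2 was also lost by DESeq2 and in 4 of the 6 fits that leave out a replicate. With clusters and without cluster 15 the median over the mitosis members was -1.63 and -1.12, against -0.53 in all gated cells. Both settings leave out cluster 15, which lowers cko replicate 2 by construction. Between monocytes and macrophages and CD8 T cells the genotype difference differed for 18 members, led by Mcm6 (-1.05) and Rrm2 (-2.18). Between cDC and CD8 T cells this difference differed for 13 members, led by Hmgb2 (-1.01) and Birc5 (-2.20), and for 1 member in thinned cells. All of these were lower in the first class named, by edgeR's quasi-likelihood test. The groups of 3 samples are too small for a check on single outlying samples.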

How the results depend on the processing

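Counts below are called members, and the share of all genes called in each fit is not given beside them. Replacing the gate by clusters, which leaves out T and NK cluster 15, gave 16 in Treg cells and 19 in cDC, all lower. It gave 9 for the difference between Treg and conventional CD4 T cells and 2 for the Treg class difference, all lower. For the CD8 class difference it gave 10, all higher. Without the filter on low counts there were 1 in CD8 T cells, 1 in NK cells, 18 in cDC and 7 for the Treg interaction. Adding cko replicates 1 and 3 together gave 1 in cDC, 1 for the Treg interaction and 7 for the cDC interaction. Thinning gave 1 in NK cells, 9 in monocytes and macrophages, 1 in cDC, and 0, 8 and 1 for the Treg, macrophage and cDC interactions. Keeping doublets gave 0 in cDC and 1 for the Treg interaction, and DESeq2 or no TMM scaling gave 1 for the latter. The replicate block gave 0 in Treg cells, 0 in conventional CD4 T cells, 0 in CD8 T cells, 1 in NK cells, 22 in monocytes and macrophages and 19 in cDC. In each class 1 to 2 of the 3 ctr samples correlated best with the cko sample of their own number. Alternatives added after seeing the data gave 10 without cluster 15 for the Treg class difference and 5 without cluster 20 for monocytes and macrophages. Both clusters were chosen after their member levels were seen. Counts without cluster 15 are not given for the genotype effect in Treg cells or the Treg interaction, as leaving it out lowers cko replicate 2 by construction. The cause of these shifts was not tested.

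Leaving out 1 replicate at a time gave 0 to 8 in Treg cells, 0 in conventional CD4 T cells, CD8 T cells and NK cells, 15 to 27 in monocytes and macrophages and 1 to 15 in cDC. It gave 1 to 5 for the Treg interaction, 10 to 21 and 6 to 14 for the macrophage and cDC interactions, and 16 to 28, 2 to 6 and 36 to 40 for the class differences of Treg cells, CD8 T cells and cDC. The 8 in Treg cells came without cko replicate 2, the highest cko sample there. The number of all genes called moved too, from 44 to 368 in Treg cells, 1240 to 2744 in monocytes and macrophages and 60 to 680 in cDC. Leaving out 1 replicate, Ccnb1 in Treg cells ranged from -1.84 (adjusted p = 0.0267, without cko replicate 2) to 0.58. Tyms of CD8 against conventional CD4 T cells turned to 0.0202 (adjusted p = 0.857) with clusters. Of the values of single members under all alternatives, 1001 kept their side of the threshold (56 of these changed sign without passing it), 84 lost it, 24 gained it, and the 2 just named for Ccnb1 and Tyms changed sign with a call in 1 of the fits. Without TMM scaling the median of all genes moved to 0.13 in NK cells. Counts were too low to test Aurka in NK cells and Ccnb1 in cDC.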

Other observations

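T cells of expanded clones were compared with those whose clone had 1 cell, an expanded clone being one with at least 3 cells in the sample. In conventional CD4 T cells the share of member-high cells was higher in expanded clones in 6 of 6 samples, by 10.5 percentage points on average (SD 6.76; exact paired permutation p = 0.03125, the smallest that 6 pairs allow; 0.09375 after Benjamini-Hochberg adjustment over 3 classes). It ranged from 9.43% to 31.6% in expanded clones and from 5% to 13.7% in single cells of a clone, and did not pass after adjustment. In CD8 T cells the mean difference was 1.37 points (higher in 4 of 6; exact p = 0.1875, adjusted 0.28125). In Treg cells it was -1.74 points (higher in 3 of 6; exact p = 0.5). The cko replicates 1 and 3, which share clones, count as 2 of these samples.

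Across the 36 sums of 6 classes and 6 samples, the non-member genes with levels most like the replication members included Dut, Clspn, Gmnn, Tcf19, Orc6, Prim1 and Rfc4 (Pearson r from 0.976 to 0.986 on log2 CPM, of 7759 genes). For the mitosis members they were Ndc80, Ncapg, Prc1, Dlgap5, Mad2l1, Hmmr, Fbxo5 and Kif22 (r from 0.967 to 0.977). The 15 of 16 replication members and 21 of 25 mitosis members with a mean level of at least 10 CPM followed their own list's sum with r from 0.883 (Cdt1) to 0.986 and from 0.891 (Kif23) to 0.975. These are descriptions, as sums of 1 sample share a library and the classes differ in depth.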
